A study of Mus musculus with 6 samples.

Results

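At 4 h of lipopolysaccharide (LPS), macrophages lacking Akirin2 differed from wild-type macrophages most broadly in interferon-stimulated genes, which were lower. The single largest differences, read from 1 probe set per gene, were a lower Hal and a higher Lox. This comparison was made between 1 array of each genotype, 2 of the 6 arrays of the series, and covers 13587 genes. Both samples were thioglycollate-elicited peritoneal macrophages, stimulated with LPS at 100 ng/ml for 4 h, from mice of mixed C57BL/6 and 129Sv background. The wild-type sample is set against LysM-Cre+;Akirin2fl/fl, called Akirin2 KO here, in which a Cre recombinase driven from the lysozyme locus removes floxed Akirin2 in myeloid cells and leaves it in other cells. The sources used here do not say whether the wild-type mice carried the Cre or the floxed alleles, how old the mice were, or how many of them gave each sample. The other 4 arrays hold the same genotypes without LPS and at 2 h, and serve below as levels beside those at 4 h. With 1 array a side there is no spread between samples and no test, so genes are described by the size of the log2 difference, KO minus wild-type, on Affymetrix arrays. A log2 difference of 1 is 2-fold, and an array value near 3 is close to the median of all probe sets (3.18 on both arrays) and thus near background.

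LPS is sensed by TLR4, which switches on NF-kB-driven genes within the first hours and, through the adaptor TRIF and the factor IRF3, the gene for interferon beta. Secreted interferon then acts back on the same macrophages through its receptor, so that antiviral genes rise as a later wave. Akirin2 is a small nuclear protein without a DNA-binding domain that has been described as a bridge between the NF-kB cofactor IkB-zeta and SWI/SNF chromatin remodelling complexes at genes such as Il6, and as a factor for import of proteasomes into the nucleus.

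Many interferon-stimulated genes hold a short promoter element, in these data 19 of the 34 listed and measured genes with a promoter in the table. The promoters of 4 genes that were lower in KO and hold it are shown first, with that of Gbp2b, which was higher and holds it too, and that of Il6. Each is the 140 bases before the annotated start, 5′ to 3′ on the gene's strand, from RefSeq (GRCm38.p6). Gbp3 has a further listed start whose 140 bases (chr3:142560216-142560355) hold 0 matches. Capitals mark the core of the interferon-stimulated response element, which is GAAA, any 2 bases and GAAA again, on either strand; in Il6 they mark a form of the NF-kB site, GGGA, any 2 bases and TTCC.
Ifit1 (chr19:34640749-34640888, plus strand): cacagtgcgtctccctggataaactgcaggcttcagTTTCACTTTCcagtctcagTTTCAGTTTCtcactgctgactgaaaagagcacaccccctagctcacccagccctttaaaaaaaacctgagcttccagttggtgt
Irgm2 (chr11:58214837-58214976, plus strand): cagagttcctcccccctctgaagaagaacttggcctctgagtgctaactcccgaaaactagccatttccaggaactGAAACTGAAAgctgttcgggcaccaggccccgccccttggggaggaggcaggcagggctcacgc
Oas3 (chr5:120777660-120777799, minus strand): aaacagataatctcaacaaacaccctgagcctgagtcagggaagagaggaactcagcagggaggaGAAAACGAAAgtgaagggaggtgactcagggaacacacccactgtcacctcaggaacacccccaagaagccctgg
Gbp3 (chr3:142559904-142560043, plus strand): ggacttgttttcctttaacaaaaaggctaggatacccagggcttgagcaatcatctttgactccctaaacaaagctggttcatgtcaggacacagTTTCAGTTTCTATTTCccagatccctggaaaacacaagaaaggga
Gbp2b (chr3:142594707-142594846, plus strand): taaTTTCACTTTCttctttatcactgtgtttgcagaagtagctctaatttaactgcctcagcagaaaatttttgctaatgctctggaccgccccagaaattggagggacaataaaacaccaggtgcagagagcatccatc
Il6 (chr5:30012974-30013113, plus strand): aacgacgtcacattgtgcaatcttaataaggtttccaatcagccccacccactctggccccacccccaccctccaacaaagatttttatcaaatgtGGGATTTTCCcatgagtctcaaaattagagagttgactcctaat

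The Akirin2 transcript was lower in KO, as its label says. Its log2 value was 7.33 in wild-type and 4.91 in KO at 4 h, so the KO sample held 18.7% of the wild-type level. A further Akirin2 probe set read near background, at 2.79 in wild-type and 3.0 in KO. The paralog Akirin1 differed by 0.26 (9.74 in wild-type and 9.99 in KO), and Lyz2, whose locus carries the Cre, by -0.02. Because bulk RNA was measured, fewer cells with Akirin2 and less Akirin2 RNA per cell cannot be told apart.

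Cell markers were set beside the comparison. Of 9 macrophage markers named on the array, 6 were lower in KO and 0 were 2-fold apart, with a log2 summed level of 13.8 on both arrays. Fcgr1 (-0.89), Mertk (-0.62) and Adgre1 (-0.44) had the largest differences. Csf1r read 12.60 and 12.69, Cd68 10.60 and 10.71 and Cd14 10.66 and 10.56 in wild-type and KO, whereas Itgam read near background on both arrays (3.08 and 3.06). Of 10 resident peritoneal macrophage markers 5 were lower and 0 were 2-fold apart, from Cxcl13 at -0.97 to Alox15 at 0.94, and their log2 summed level was 10.95 in wild-type and 10.54 in KO. Mesothelial and fibroblast markers were lower in KO for 8 of 10, with a log2 summed level of 9.78 in wild-type and 9.04 in KO; Col1a1 read 8.71 and 7.96, and Col1a2 7.67 and 6.46. Lymphocyte, mast cell, eosinophil, dendritic and erythroid markers stayed at 5.59 or below on both arrays. Of 7 neutrophil markers 4 were lower in KO and 0 were 2-fold apart. S100a8, a neutrophil marker also made by macrophages, read 9.06 in wild-type and 8.80 in KO. S100a9 went the other way, with 6.09 in wild-type and 6.34 in KO. As a measure of RNA integrity, the 3′ probe set of Actb exceeded its 5′ probe set by 4.09 in wild-type and 4.36 in KO, and that of Gapdh by 4.42 and 4.44. Hybridisation spikes were also higher in wild-type, bioB by a log2 of 0.36. The part of these marker, RNA and spike differences in the results that follow was not tested.

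Few genes were far apart. At 2-fold or more, 113 genes were higher in KO, 0.832% of the 13587 genes, and 84 were lower, 0.618%. At 3-fold the counts were 16 and 14, and 8 and 4 genes differed 4-fold. In all, 88.1% of genes differed by under 0.5 on the log2 scale, the SD of the difference over genes was 0.35 and its median was 0.030. The split between directions depended on scaling: with each array centred on its median gene, which takes a log2 of 0.106 from every difference, the counts were 75 higher and 125 lower. With genes ranked by level and cut into 4 sets of nearly equal size, 0 genes of the lowest set were 2-fold apart, and in the highest set 18 were higher and 41 lower in KO. The lowest set had mean levels of 2.54 to 3.24 at 4 h, near background, where a 2-fold difference is hardly possible. Its 3397 genes are counted in the shares given here. By any amount, 6188 of the 13587 genes were lower in KO and 7383 higher, the background for every count of lower genes in a list. Genes induced by LPS leaned lower as a whole, so this background is low for lists of induced genes. By the mean response over both genotypes, 310 genes were up 2-fold at 2 h, and 219 of them (70.6%) were lower in KO. Of 233 genes up only by 4 h, 172 (73.8%) were lower.

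**Figure D1:**
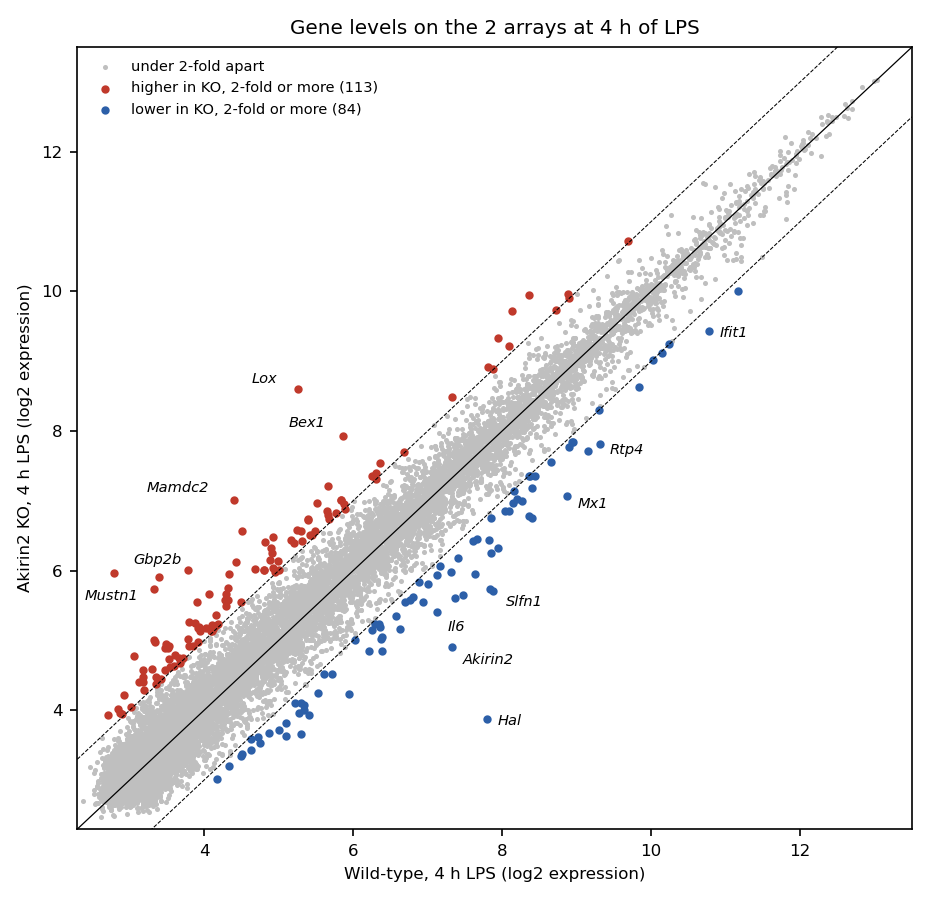
Log2 expression of 13587 genes in wild-type (x axis) and Akirin2 KO macrophages (y axis) at 4 h of LPS, 1 array each; the solid line marks equal levels and dashed lines a 2-fold difference. The 113 genes higher in KO (red) include Lox and Mustn1, and the 84 lower (blue) include Hal, Akirin2, Slfn1 and Il6.

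Below the gene level, 36 of the 84 lower genes had a further probe set above the expression floor. Of those 69 further probe sets, 57 were also lower in KO, 28 of them by 0.5 or more and 12 by 2-fold. Only 1 was higher by 0.5 or more, that of Xaf1, at 3.99. For the higher genes, 60 of 113 had 92 further probe sets, of which 75 were also higher, 33 by 0.5 or more, and 3 were lower by 0.5 or more. Over all genes, 81 of 10666 further probe sets were 2-fold apart in either direction. Probe sets of a gene read the same RNA samples and are not replicates. Among genes named below, a further probe set of Cmpk2, Ddx58, Stat2, Il12b, Lta4h, Smarca2, Mmp19, Snx30 or Zfp955b read near 4 or below at 4 h. Each of these differed by under 0.5, against the larger difference given for the gene. Averaging all probe sets of a gene reduced the counts to 50 higher and 52 lower, of which 47 and 47 were among the genes counted before.

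The antiviral effectors of the IFIT and OAS families were lower in KO as a group. IFIT proteins bind foreign RNA and OAS enzymes activate RNase L. All 10 measured members were lower, 7 of them by 2-fold or more, with a median of -1.27 against 0.030 over all genes, or -1.30 relative to all genes. Ifit2 read 4.36, 4.12 and 7.84 in wild-type at 0, 2 and 4 h, and 3.25, 3.07 and 5.74 in KO. Its level thus climbed between 2 h and 4 h in both genotypes, and the KO level at 4 h was 4.27-fold lower. Oasl2 followed the same course, with 5.15, 5.21 and 8.36 in wild-type against 4.12, 4.08 and 6.79 in KO. Ifit3 and Oas3 were alike in the genotypes before 4 h. Ifit3 read 3.29, 3.56 and 6.39 in wild-type against 3.37, 3.26 and 5.05 in KO, and Oas3 2.96, 3.10 and 5.34 against 2.76, 2.96 and 4.08. Ifit1 was the opposite case, since its difference was larger without LPS (-2.23) than at 2 h (-1.72) or 4 h (-1.35), where it read 10.78 and 9.43. The smallest differences were those of Oas1a (-0.76), Oas2 (-0.70) and Oas1b (-0.33).

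Other antiviral genes moved in the same direction. Of 29 measured, 28 were lower and 12 of them by 2-fold or more, with a median of -0.83. Mx1, a GTPase that blocks influenza virus, read 4.48, 6.23 and 8.87 in wild-type against 4.11, 4.74 and 7.07 in KO. Cmpk2, a mitochondrial nucleotide kinase gene beside Rsad2, read 7.64 and 5.95 at 4 h. Rsad2, which encodes the antiviral enzyme viperin, read 11.17 in wild-type and was 2.24-fold lower in KO, so its level there remained high. Rtp4 (-1.49), Isg20 (-1.33), the ISG15 ligase gene Herc6 (-1.32), the ISG15 protease gene Usp18 (-1.19) and the RNA sensor gene Ifih1 (-1.03) were also at least 2-fold lower. For Rtp4 the difference was -1.41 already without LPS. Ifi27l2a was lower by 1.66 at 4 h but by 1.81 already without LPS, and its level was alike at 0 and 4 h in both genotypes (8.53 to 8.40 in wild-type, 6.72 to 6.75 in KO). The kinase gene Eif2ak2 was the only listed antiviral gene of the 29 that was higher in KO, by 0.36. The call on Xaf1 rests on the probe set: the one with the higher mean read 7.48 in wild-type and 5.65 in KO, while the other read 3.36 in wild-type and 7.35 in KO.

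Guanylate-binding proteins (GBPs) and immunity-related GTPases (IRGs), which attack vacuoles of intracellular microbes, were lower for 8 of 9 measured members, with 4 past 2-fold and a median of -0.96. Irgm2 read 3.95, 4.26 and 6.40 in wild-type against 3.76, 3.83 and 4.86 in KO, so the genotypes were close until 2 h. Irgm1 read 6.57 and 5.35 at 4 h, Gbp3 8.66 and 7.55, and Gbp6 6.29 and 5.24. A further Gbp6 probe set differed by -1.42. Gbp2b stood against the rest of the family, with 2.65, 2.54 and 3.39 in wild-type against 3.73, 4.68 and 5.91 in KO. Its KO level was 5.74-fold higher at 4 h and above wild-type at every time. In the Schlafen family, linked to growth arrest of lymphoid and myeloid cells, all 7 genes were lower, Slfn1 by 2.18 (7.88 and 5.71), Slfn8 by 1.09 and Slfn4 by 0.92, with the other 4 between -0.41 and -0.06.

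**Figure D2:**
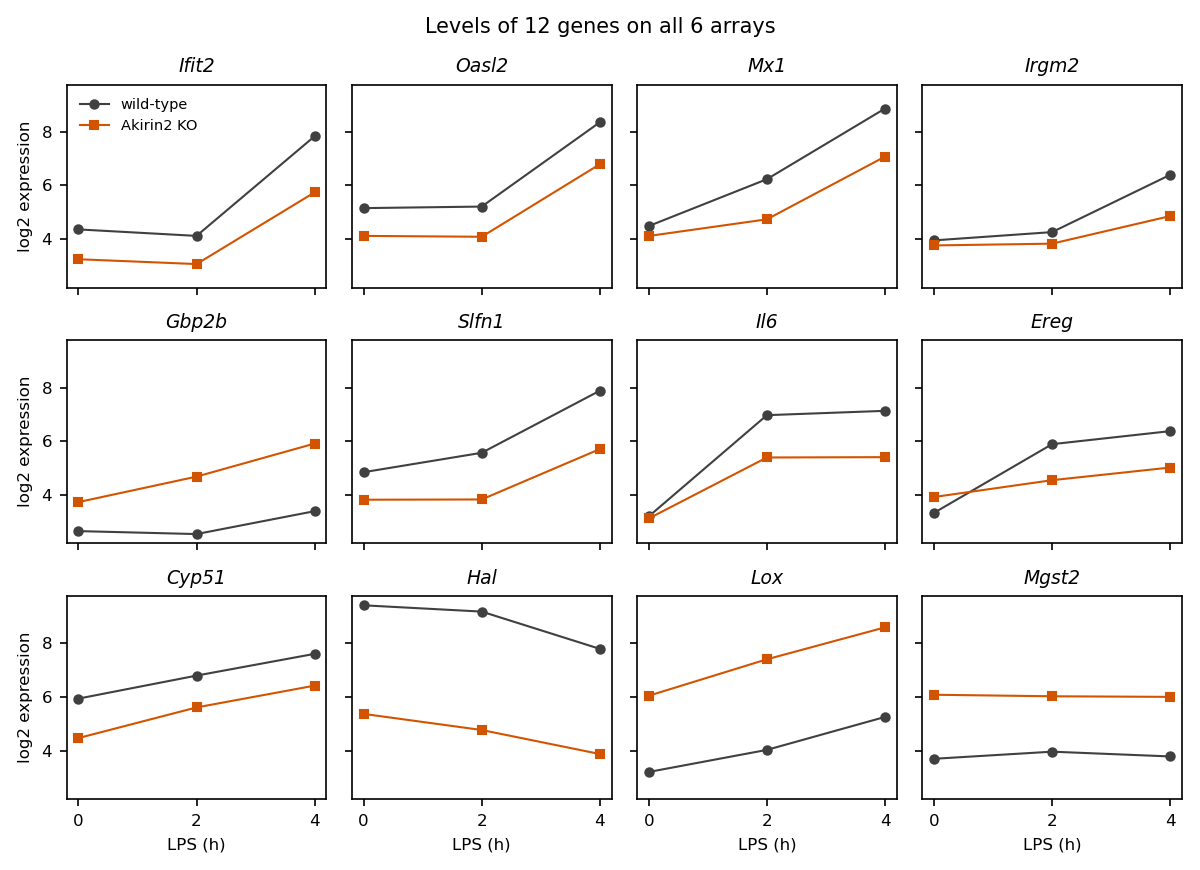
Log2 expression of 12 genes (y axis) at 0, 2 and 4 h of LPS (x axis) in wild-type (grey circles) and Akirin2 KO macrophages (orange squares), 1 array for each point. Ifit2, Oasl2, Mx1, Irgm2, Slfn1 and Il6 end lower in KO at 4 h; Gbp2b, Lox and Mgst2 lie higher in KO, and Hal lower, at all 3 times.

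Over these 3 interferon-stimulated lists together, the IFIT and OAS genes, the other antiviral genes and the GTPases, 46 of 48 measured genes were lower in KO at 4 h. Over all 13587 genes, 6188 were lower. By 2-fold or more 23 of the 48 were lower, beside 0.618% of all genes. The median difference was -0.34 without LPS, -0.44 at 2 h and -0.96 at 4 h, and for 44 of the 48 it was more negative at 4 h than without LPS. Induction itself was present in KO: by 4 h 40 of the 48 stood 2-fold or more above 0 h in wild-type and 37 in KO, with median log2 increases of 2.38 and 1.70. For 40 of the 48, the KO level at 4 h lay above the wild-type level at 2 h and below that at 4 h. Leaving out Xaf1 kept the median within the spread between probe sets. The lists were chosen with results of these arrays known, so their direction is no independent evidence. Mesothelial and fibroblast markers were lower as well (median -0.64 over 9 measured above the floor), and their part in these differences was not tested.

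The element shown above was common in the promoters of the lower genes. Of 66 genes lower by 2-fold that have a RefSeq promoter in the table, 16 (24.2%) held the interferon-stimulated response element core between 250 bases before and 50 after a start, on either strand, against 3 of 94 higher genes (3.19%), 3.81% of 10888 measured genes and 3.44% of all 32851 promoters of that length. Over the 3 interferon lists 19 of 34 genes with a promoter held it and 15 did not, Ifit2 among those without. By list it was in all 7 GTPase genes, Gbp2b included, at bases -137 to -128, and in 5 of 8 IFIT and OAS genes, whereas 0 of 11 cytokine genes held it. Of 48 lower genes outside the 3 lists, 6 (12.5%) held it, among them Cxcl10 and Slfn8. The NF-kB form was in 6 of the 66 lower and 1 of the 94 higher promoters, against 1.80% of measured genes, and in Il6 it lay at bases -44 to -35. The AP-1 element TGANTCA was in 12 of the 66 and 7 of the 94, against 6.96%. These are letter matches only, with overlapping matches within a promoter counted as 1 gene.

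Upstream of these effectors the pattern was mixed. The interferon gene Ifnb1 differed by -0.09, but it read near background on all 6 arrays, so these values say little about it. The receptor genes Ifnar1 and Ifnar2 differed by 0.15 and -0.21. Among 15 measured IRF and STAT genes 1 was 2-fold lower, 1 was 2-fold higher, and the median was -0.01. Irf1, an interferon regulatory factor gene, read 8.36 in wild-type and 7.36 in KO (-1.0), Irf7, which amplifies interferon production, 5.36 and 4.37 (-0.99), and Stat2 4.54 and 3.65 (-0.89). Irf9 (-0.10) and Irf3 (-0.01) were close between genotypes. Irf4 ran the other way, with 5.19, 4.75 and 3.80 in wild-type against 4.70, 5.74 and 5.27 in KO, and so did 1 probe set of Irf8, with 4.47 and 5.33 at 4 h, while a further Irf8 probe set read 4.36 and 4.34. In wild-type both genes stood lower at 4 h than at 0 h, whereas Irf4 in KO stood higher.

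Of 12 measured nucleic acid sensors, the RNA helicase gene Ddx58, which encodes RIG-I, was lower by 1.15 (6.70 and 5.55) and Ifih1, which encodes MDA5, by 1.03. Sting1, the adaptor of cytosolic DNA sensing, was higher by 1.43. It read 5.69, 5.66 and 4.33 in wild-type against 5.93, 5.76 and 5.75 in KO, so the wild-type level at 4 h was the one that stood apart. A further Sting1 probe set was higher in KO by 0.59. Mavs, the adaptor of RIG-I and MDA5, was higher by 0.61 at 4 h but lower by 1.03 without LPS.

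**Figure D3:**
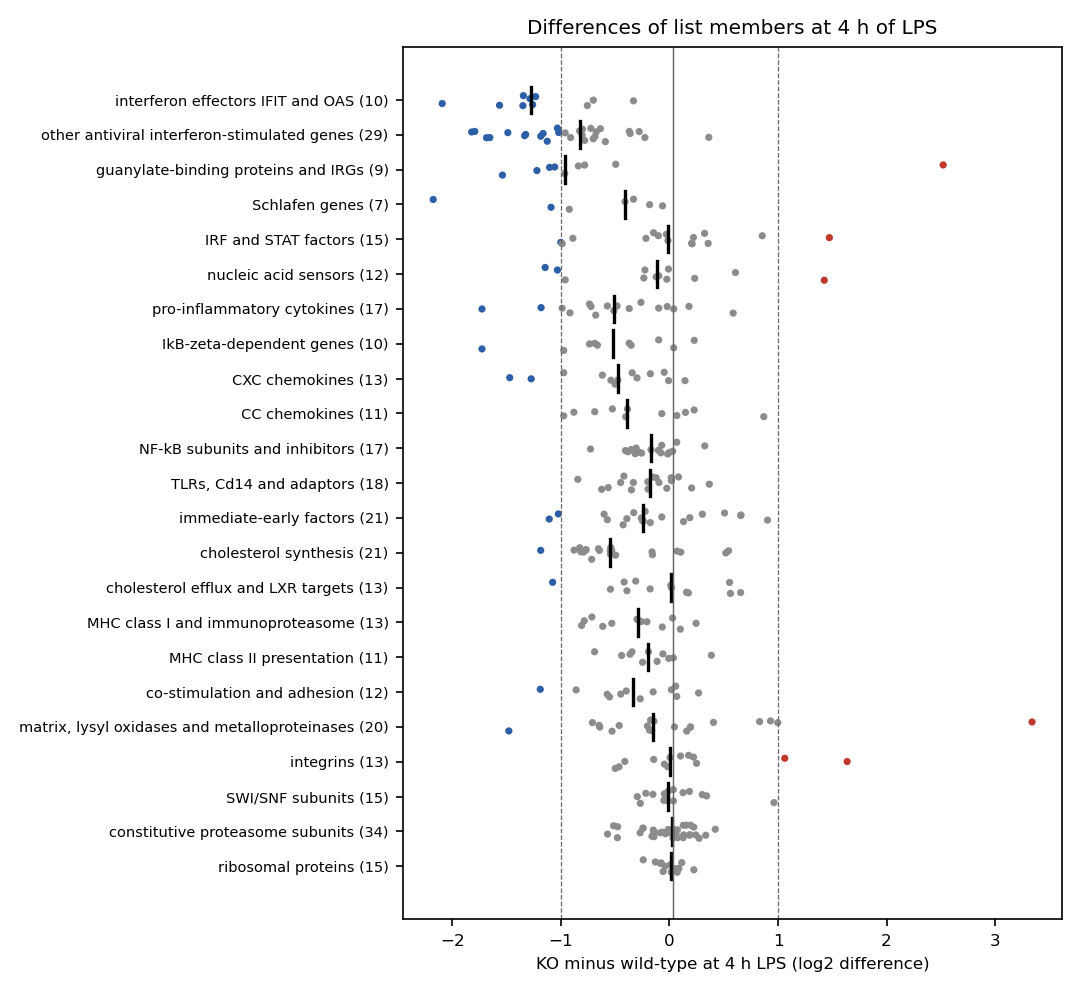
Log2 difference at 4 h of LPS, KO minus wild-type (x axis), of each measured member of 23 gene lists (rows, number measured in brackets); points past 2-fold are blue (lower) or red (higher), bars are list medians, the grey line is the median of all genes (0.030) and dashed lines mark 2-fold. The 3 interferon-stimulated lists at the top have medians of -1.27, -0.83 and -0.96, whereas proteasome and ribosomal genes lie around 0.

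Inflammatory cytokines were lower for 14 of 17 measured genes, beside 6188 of all 13587 genes and 219 of 310 genes up 2-fold at 2 h. Of the 14, 2 passed 2-fold, and the median of the list was -0.51. Il6, the fever and acute phase cytokine, read 3.20, 6.97 and 7.13 in wild-type against 3.12, 5.39 and 5.41 in KO. The genotypes were equal without LPS, and at 4 h the KO level was 3.31-fold lower. Tnfsf9, the ligand of the T cell receptor 4-1BB, read 8.04 and 6.86 at 4 h. Il1b (10.28 and 9.29) and Il1a (8.18 and 7.26) were just under 2-fold lower, and Tnf, with 10.10 and 9.59, by 0.51. Il12b differed less at 4 h (-0.74) than at 2 h (-1.18), as did the IL-6 family gene Lif (-0.72 and -1.14). Il1rn, the antagonist of the IL-1 receptor, was the highest of the 17, at 0.59 above wild-type. On the list of 10 genes linked to IkB-zeta, Il6 alone was past 2-fold; the median was -0.52, Ccl17 (-0.97) and Lcn2 (-0.66) were lower, Ebi3 (0.04) was close between genotypes, and Csf3 (3.04 and 2.94) read near background.

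Among chemokines, Cxcl10, an interferon-linked attractant of T cells, read 3.74, 7.57 and 8.27 in wild-type against 3.26, 6.30 and 6.99 in KO. Cxcl14 was lower at every time, with 6.80, 6.86 and 6.64 in wild-type against 5.10, 4.96 and 5.16, and its further probe set differed by -2.02 at 4 h. Cxcl13, an attractant of B cells, read 9.90 and 8.92 at 4 h (-0.97), and its difference was larger without LPS (-1.71) and at 2 h (-1.14). The neutrophil attractants were closer, with Cxcl1 at -0.54, Cxcl3 at -0.47 and Cxcl2 at -0.34. Of 13 CXC chemokines 12 were lower, 2 of them by 2-fold or more (median -0.47). Of 11 CC chemokines 7 were lower (median -0.39), beside 6188 of all 13587 genes and 219 of 310 genes up 2-fold at 2 h. Of the 11, 0 passed 2-fold, beside 0.832% of all genes higher and 0.618% lower. Ccl3 and Ccl4, attractants of monocytes, differed by -0.39 and -0.53, Ccl5 by -0.40 and Ccl2 by 0.23, and Ccl8 was higher by 0.87 from a wild-type level near background (3.17).

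The signalling genes ahead of these targets differed less. Of 17 NF-kB subunits and inhibitors 14 were lower (median -0.17), beside 6188 of all 13587 genes and 219 of 310 genes up 2-fold at 2 h. Of the 17, 0 were 2-fold apart, which is near the share over all genes (0.832% higher and 0.618% lower). Rel, which encodes c-Rel, had the largest difference (5.58 and 4.85, -0.73), whereas Nfkbia (-0.02), Relb (-0.07) and Rela (-0.17) were near equal. Nfkbiz, the IkB-zeta gene, differed by -0.35, and its further probe sets by -0.72 and -0.16. Of 18 Toll-like receptor, Cd14 and adaptor genes 0 were 2-fold apart, also near that share. Irak1 was lowest at -0.84, Myd88 was at -0.62 and Tlr4 highest at 0.37. The further probe sets of Irak1 differed by -0.55, -0.32 and -0.31. Among 21 immediate-early factors Egr1 (7.17 and 6.06) and Ier3 (6.03 and 5.01) were lower by 2-fold, but both were already lower by 1.34 and 1.27 without LPS. Fos (0.66), Jun (0.66) and Myc (0.90) were higher in KO. The phosphatase gene Dusp10, an inhibitor of p38 and JNK, read 3.53 in wild-type and 4.74 in KO, though a further probe set differed by -0.49. Ereg, an EGF receptor ligand, read 3.33, 5.89 and 6.38 in wild-type against 3.92, 4.55 and 5.02 in KO. It was thus higher in KO without LPS, where both levels were not far above background, and 2.56-fold lower at 4 h. The early activation marker Cd69 read 6.77 and 5.58, and Cd40 9.48 and 8.62. Further Cd40 probe sets differed by -1.13 and -1.19, past 2-fold.

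The 2 protein machines tied to Akirin2 were close between genotypes at the RNA level. Of 15 SWI/SNF subunits 0 were 2-fold apart and the median was -0.01. Over all genes 0.832% were 2-fold higher and 0.618% lower, so a count of 0 in 15 is near that share. Smarca2, which encodes the BRM ATPase, was highest (5.32 and 6.28), and Smarcd1, which encodes a BAF60 subunit, read near background (3.01 and 3.14). Of 34 constitutive proteasome subunits all lay between -0.57 and 0.42, with a median of 0.02. Ribosomal protein genes lay between -0.24 and 0.23. The interferon-inducible immunoproteasome subunits Psmb8 (7.52 and 6.71), Psmb9 (5.47 and 4.75) and Psmb10 (7.13 and 6.52) were lower by 0.61 to 0.81, and Nlrc5, the activator of MHC class I genes, by 0.78 (9.39 and 8.61). B2m (0.03) and the class I gene H2-K1 (-0.29) were nearer to equal.

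Genes of cholesterol synthesis were lower for 17 of 21, beside 6188 of all 13587 genes. On the probe set read for each gene, only Cyp51 was lower by 2-fold or more, and the median of the list was -0.55. Cyp51, the lanosterol demethylase gene, read 5.94, 6.80 and 7.61 in wild-type against 4.47, 5.61 and 6.42 in KO. Its further probe sets differed by -1.14 and -0.06. Idi1 (8.03 and 7.15), Fdft1 (8.01 and 7.19), Hmgcs1 (11.81 and 11.04) and Insig1 (11.20 and 10.66) were lower, while Dhcr7, which acts in the last step of the pathway, was higher by 0.54. A further Idi1 probe set was past 2-fold, with 6.80 in wild-type and 5.64 in KO (-1.16). The list's median was -0.53 without LPS, -0.46 at 2 h and -0.55 at 4 h, and relative to all genes -0.46, -0.47 and -0.58. Unlike that of the interferon lists, it was thus of similar size at the 3 times. This contrast was not tested. Apoe, which carries cholesterol out of macrophages, was lower by 1.08 (8.44 and 7.36), and its regulator Nr1h3, the LXR alpha gene, was higher by 0.66. The Apoe difference was -1.07 already without LPS. Mesothelial and fibroblast markers were lower at 4 h too (summed log2 level 9.78 and 9.04), and their part here was not tested.

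Several of the largest differences were not of interferon or inflammatory genes and were present before LPS. Hal, the histidine-degrading enzyme gene, read 9.42, 9.19 and 7.80 in wild-type against 5.37, 4.77 and 3.87 in KO, which left 6.6% of the wild-type level at 4 h. Lox, the collagen and elastin cross-linking enzyme gene, read 3.20, 4.03 and 5.26 in wild-type against 6.05, 7.41 and 8.60 in KO. It climbed with LPS in both, and the KO level at 4 h was 10.1-fold higher; its further probe sets differed by 2.48 and 0.63. Mustn1 read 2.79 and 5.97 at 4 h, with wild-type near background at all 3 times, and Mamdc2 read 4.41 and 7.01. Mgst2, a glutathione transferase gene of leukotriene C4 synthesis, stayed between 3.70 and 3.96 in wild-type and between 6.01 and 6.08 in KO. Bex1 read 5.86 and 7.94, the integrin beta 3 gene Itgb3 3.91 and 5.55, and the branched-chain aminotransferase gene Bcat1 4.82 and 6.41, though the further probe sets of Bcat1 differed by -0.54 and -0.05.

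**Figure D4:**
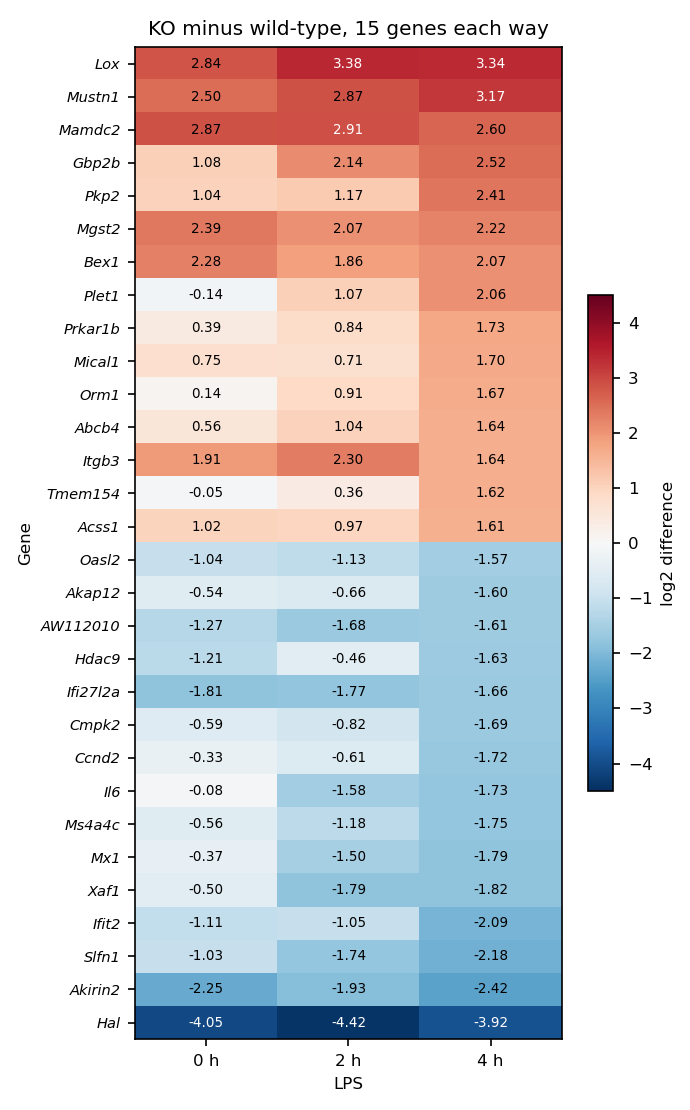
Log2 differences, KO minus wild-type, at 0, 2 and 4 h of LPS (columns) for the 15 genes most above and the 15 most below wild-type at 4 h (rows); red is higher and blue lower in KO. Lox, Mustn1, Mamdc2, Mgst2, Bex1, Akirin2, Hal and Ifi27l2a are of like size at the 3 times, whereas Plet1, Orm1, Tmem154 and Il6 are near 0 without LPS.

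Genotype differences of 2-fold at 4 h were in part shared with the other times, which use separate arrays. Of the 113 higher genes, 24 (21.2% of them, and 22.6% of the 106 higher without LPS, which are 0.78% of all genes) were also 2-fold higher without LPS, and 32 at 2 h (28.3%, and 48.5% of the 66, which are 0.486%). Of the 84 lower genes, 26 (31.0%, and 16.7% of the 156, which are 1.15%) were also lower without LPS and 29 at 2 h (34.5%, and 46.0% of the 63, which are 0.464%). Direction was more widely shared: 111 of the 113 and 81 of the 84 had the same sign at 2 h, and 88 and 75 without LPS. The 3 samples of a genotype may share mice, which the labels do not settle.

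A further 30 of the higher and 16 of the lower genes differed by under 0.5 at both earlier times, as did 10718 of all 13587 genes. The lower ones with the largest differences were, in order, Irgm2, Agrn, Ifit3, Herc6, Oas3, Elavl4, Osmr, Ddx60, Ddx58 and Col6a3, of which Irgm2, Ifit3, Herc6 and Oas3 are on the interferon-stimulated lists. Agrn, a heparan sulfate proteoglycan gene, read 3.93, 4.09 and 6.21 in wild-type against 3.58, 4.26 and 4.85 in KO. The higher ones were Tmem154, Hddc2, Sting1, Ptx3, Ptch1, Cluap1, Snx30, Zfp955b, Cep164 and Kank3. For all of these but Ptch1 and Ptx3, the wild-type level at 4 h lay below that at 0 h by more than 0.5: Tmem154 read 6.57, 5.56 and 4.34 in wild-type against 6.52, 5.92 and 5.96 in KO, and Hddc2 4.69, 3.97 and 3.49 against 4.66, 4.46 and 4.94. Ptx3, a secreted pattern recognition protein gene, differed from them by climbing in both, with 3.52, 4.11 and 4.90 in wild-type against 3.68, 4.56 and 6.33 in KO. Genes above 0.5 at 2 h and larger at 4 h included Plet1, the acute phase gene Orm1 and Pkp2. Plet1 read 2.73, 4.54 and 4.51 in wild-type against 2.59, 5.61 and 6.57 in KO, with further probe sets at -0.19 and 0.48 at 4 h. Orm1 read 3.18, 3.31 and 3.34 against 3.32, 4.22 and 5.01, and Pkp2 2.95, 3.91 and 3.33 against 3.99, 5.08 and 5.74. Ccnd2, the cyclin D2 gene, was lower by 1.72 (5.95 and 4.23), with 4 further probe sets above the floor between -0.88 and -0.04.

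The direction of the 4 h difference followed the class of LPS response. Genes were classed by the mean response over both genotypes, and the late and lowered classes use the 4 h arrays compared here. Of 310 genes at least 2-fold up at 2 h (early), 24 (7.74%) were 2-fold lower in KO at 4 h and 8 (2.58%) higher, and of 233 genes up only by 4 h (late), 32 (13.7%) were lower and 4 (1.72%) higher. Of 375 genes down 2-fold by 4 h, 3 (0.800%) were lower and 17 (4.53%) higher in KO. Among the other 12669 genes 0.197% were lower and 0.663% higher. The median differences at 4 h were -0.26 for early, -0.34 for late and 0.29 for lowered genes, against 0.03 for the rest. For the lowered genes the median was -0.11 without LPS, and their median log2 response by 4 h was -1.52 in wild-type and -1.15 in KO. For early genes it was -0.25 without LPS and -0.26 at 2 h. The median over all genes was -0.07 without LPS, 0.004 at 2 h and 0.030 at 4 h. Relative to all genes, the early class was thus lower already before stimulation, but by less than at 2 h and 4 h. The late class had medians of -0.19 without LPS and -0.16 at 2 h. The median log2 responses by 4 h were 1.68 in wild-type and 1.64 in KO for early genes and 1.37 and 1.30 for late genes.

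**Figure D5:**
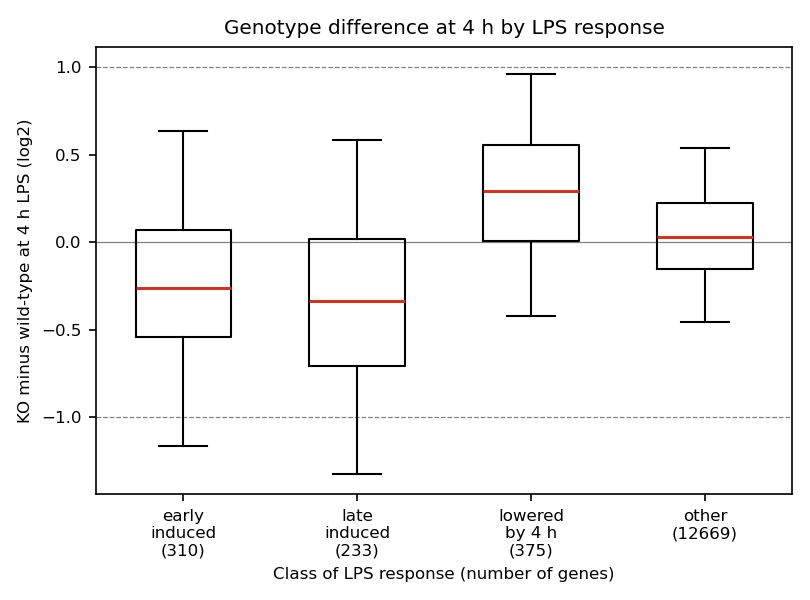
Log2 difference at 4 h, KO minus wild-type (y axis), for genes grouped by their mean LPS response over both genotypes (x axis); boxes span the middle 50% of genes, red lines are medians and whiskers run from the 5th to the 95th percentile, with no replicate error shown. Early and late induced genes lie below 0 (medians -0.26 and -0.34) and genes lowered by LPS above it (0.29).

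The remaining lists had few genes past 2-fold. Of 20 measured matrix and protease genes, Mmp9, which encodes gelatinase B, was lower by 1.48 (5.41 and 3.93, its further probe set by 0.22 in the same direction), and Mmp12 (0.83), Adam8 (0.93) and Mmp19 (1.0) were higher beside Lox. The leukocyte integrin gene Itgb7 was higher by 1.06 and Itgb3 by 1.64, with the other 11 integrins between -0.50 and 0.25. Of 16 prostaglandin and leukotriene genes, Mgst2 and Lta4h (3.20 and 4.29) were higher, and Ptgs2, the inducible cyclooxygenase gene, read 10.19 and 9.64. Among complement and Fc receptor genes C1qa was lower by just under 2-fold (5.36 and 4.37), with Fcgr1 at -0.89, C1qc at -0.59 and Fcgr4 at 0.78. The growth factor gene Pdgfa read 7.82 and 8.92. Of the lists for MHC class II, chemokine receptors, SOCS inhibitors, NRF2 targets, glycolysis, endoplasmic reticulum stress, C-type lectin and scavenger receptors, arginine metabolism and the BCL-2 family, 0 genes were 2-fold apart, and their medians lay between -0.19 and 0.18. Over all genes 0.832% were 2-fold higher and 0.618% lower, so lists of this size would hold few such genes in any case.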

How the data were processed

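RNA of 6 samples (each genotype before LPS and after 2 and 4 h, 1 array each) had been amplified, biotin-labelled and hybridised to Affymetrix arrays, per the labels. The deposited values are log2 expression per probe set, made by the authors with RMA (background correction, quantile normalization and median polish) per the submitters' processing notes. The sources used here do not give the RMA version or the probe grouping. Of 45101 probe sets, 34958 had 1 gene symbol in the platform annotation, 932 several and 9211 none; a gene was read from its single-symbol probe set with the highest mean, and 13587 of 18194 genes reached their array's median on at least 1 array. Members of 38 function and 10 cell type lists, and the named genes (3 checks, the 15 largest differences each way, the 10 largest each way among genes within 0.5 at 0 and 2 h, and up to 5 per list with further members by role), were chosen with earlier results of these data known; the motif set and text examples likewise. 563 of 673 listed genes were measured. Tables were made with Python 3.11.15, numpy 2.4.6 and pandas 2.3.3, and counting was tested on simulated data. No test was run. Alternatives were other floors, probe set rules, scalings and fold rules. Precision is limited by the number of arrays, since an array has no read depth.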

Additional observations from a re-analysis of the deposited data

Results flagged for a closer look

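The Ereg difference, KO minus wild-type, was -1.36 at 4 h and 0.59 without LPS, so the genotypes stood in opposite order at the 2 times. Without LPS its levels were not far above background, at 3.33 in wild-type and 3.92 in KO. With 1 array for each, the difference between the times was not tested here. Mavs did the reverse, being higher in KO by 0.61 at 4 h and lower by 1.03 without LPS, also untested. Among 6153 probe sets above the floor without a single gene symbol, which the comparison leaves out, 12 were 2-fold or more higher in KO at 4 h and 14 were lower. Of the lower ones, the set shared by Tgtp1 and Tgtp2 (interferon-induced GTPases) read 6.97 in wild-type and 4.66 in KO, and that shared by Isg15 and Gm9706 read 6.83 and 5.56.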

How the results depend on the processing

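The counts moved most with the size rule: 638 genes were higher and 451 lower at 1.5-fold, and 16 and 14 at 3-fold. They moved also with probe sets averaged (50 and 52) and, for the higher genes, with arrays centred (75, against 125 lower). With centring all 84 lower and 75 of the 113 higher genes kept their call; with quantile normalization again it was 82 and 96, without _x_at and _s_at probe sets 81 and 97, and with a floor at the 75th percentile 83 and 110. The median of all interferon-stimulated genes passed 2-fold with the higher floor (-1.03) and with centring (-1.07), and so did that of the GTPases with the higher floor (-1.01), averaging (-1.10), centring (-1.07) and without those probe sets (-1.06), and that of the Schlafen genes with the higher floor (-1.01). Averaging gave -0.37 for NRF2 targets and 0.24 for amino acid catabolism, which was 0.81 with the higher floor. Xaf1 turned to 1.09 with averaging. The cause of these shifts was not tested. Of 1474 values of the 252 named genes under other settings, 1381 kept their side of 2-fold and moved by less than the median gap between probe sets of a gene (0.22), or stayed past 2-fold. A floor cannot change the value of a gene, and 252 and 221 of the 1381 come from no floor and the higher floor. With probe sets averaged, only 180 values were kept in this sense, while 39 moved, 27 became weaker, 2 stronger and 1 reversed. The value without Xaf1 was added after seeing the data. No paired analysis was possible because each group has 1 array and the labels give no replicate numbers.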
